A study of Homo sapiens with 6 samples.

Results

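The mitochondrial ribosomal proteins, encoded in the nucleus, were described in MDA-MB-231 cells in which RNF20 was depleted. MDA-MB-231 is a triple-negative breast cancer cell line with a mesenchymal character, and RNF20 is an E3 ubiquitin ligase that attaches ubiquitin to histone H2B. Members were chosen by symbol: every protein-coding gene whose symbol is MRPL or MRPS followed by a number, which gave 78 of the 62703 genes listed, 49 of the large subunit (MRPL) and 29 of the small subunit (MRPS). RNA-seq was compared between 3 libraries with a short hairpin against RNF20 (shRNF20) and 3 libraries with a control hairpin (shControl), with 21988826 to 29685306 reads assigned to genes per library. Neither the number of hairpins or clones nor separate culture of the libraries is stated in the labels, and every p-value here rests on the variation among these 6 samples, which may be technical.

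Mitochondria carry their own ribosome, which translates the few messages of the mitochondrial genome, all of them subunits of the respiratory chain and the ATP synthase. Its small subunit binds and decodes the message and its large subunit joins the amino acids. Its rRNAs come from the mitochondrial genome, while all its proteins are made in the cytosol and imported. Some descend from bacterial ribosomal proteins and others are found only in mitochondria.

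RNF20 itself averaged 12.5 ± 1.52 counts per 1000000 (CPM, scaled by TMM) in shRNF20 libraries and 58.1 ± 0.34 CPM in shControl libraries (SD, n = 3 each), a log2 fold change of -2.22 (SE 0.11, edgeR quasi-likelihood adjusted p = 5.23e-06). The mesenchymal genes VIM and CD44 averaged 475 and 351 CPM in shRNF20 libraries, against 637 and 822 CPM in shControl libraries. The summed level of 6 markers of leukocytes, fibroblasts and endothelium was 7.31 to 8.54 CPM in shRNF20 libraries and 5.32 to 8.76 CPM in shControl libraries, and the T cell marker CD3E was at or near 0. Within that sum LUM, a fibroblast marker, averaged 6.67 CPM in shRNF20 libraries and 0.865 CPM in shControl libraries (edgeR log2 fold change 2.93, adjusted p = 3.19e-05). PECAM1, an endothelial marker, averaged 0.659 CPM in shRNF20 libraries and 5.12 CPM in shControl libraries (edgeR log2 fold change -2.95, adjusted p = 7.59e-05). The part of these markers in the members' values was not tested. Across members, the median coefficient of variation was 4.68% between shRNF20 libraries and 9.91% between shControl libraries.

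Of the 78 members, 77 had enough counts to be tested, and the exception was MRPL53, a protein of the stalk, with 0 counts in all 6 libraries. MRPL53 shares 52.3% of its transcript with other genes, and reads that fit both genes were not counted, so 0 counts need not mean that it is silent. After RNF20 depletion 36 of the 77 rose and 12 fell by edgeR's quasi-likelihood test at an adjusted p under 0.05, and 29 did not pass. Across all 15797 genes tested, 58.4% passed, 28.7% higher and 29.8% lower, so the share of members that changed was near that of all genes. Among members 46.8% were higher and 15.6% lower. The median log2 fold change was 0.26 over the members tested and -0.01 over all genes tested. The CPM of the groups did not overlap for 55 of the 77 members, against 66.3% of all genes tested. The family was picked with results of these data known, so these counts describe it and carry no test. Counting the 3 shRNF20 libraries as 1 sample left 14 members called (MRPL38, MRPL46, MRPL32, MRPL33, MRPL35, MRPL27, MRPL22, MRPS5, MRPS25 and MRPS23 higher, MRPL40, MRPL17, MRPS26 and MRPS16 lower).

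**Figure D1:**
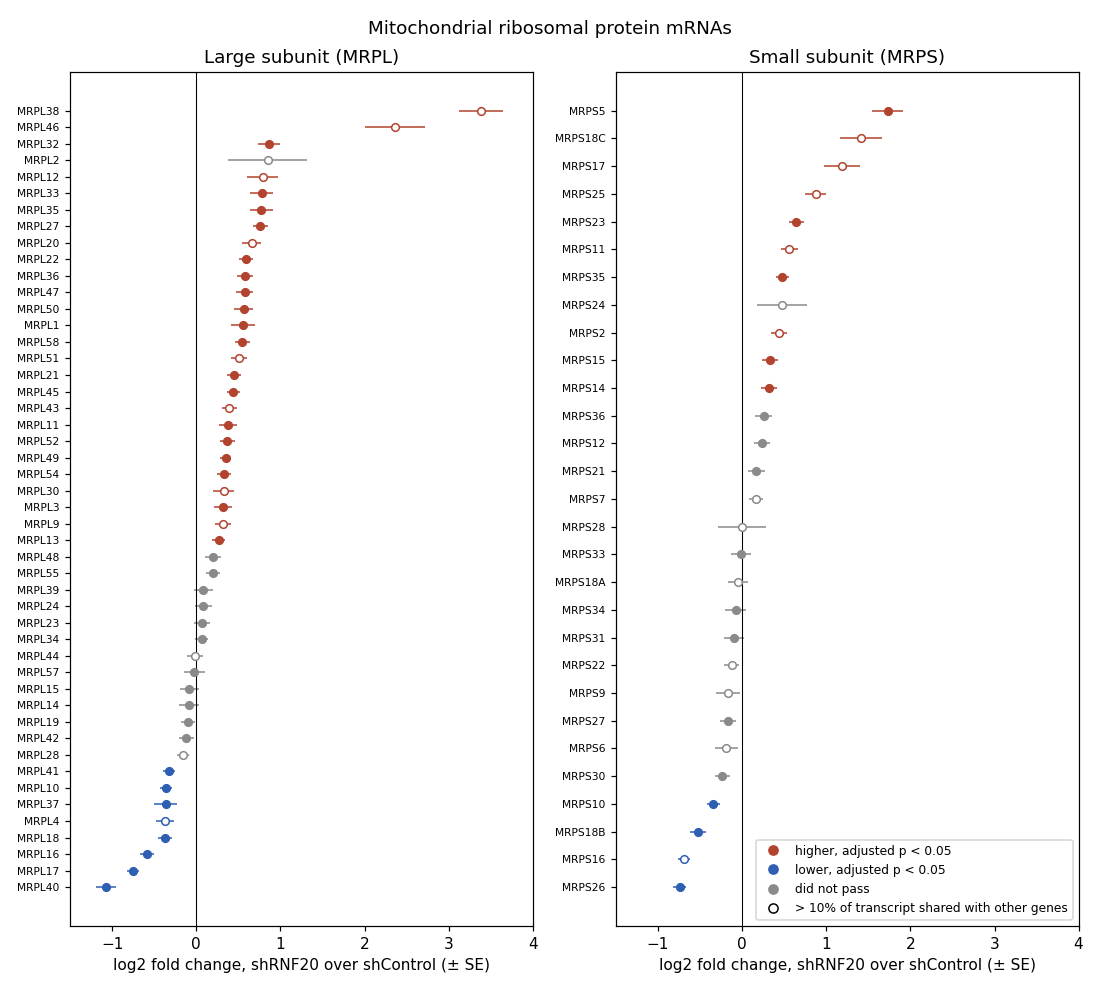
Log2 fold change (shRNF20 over shControl) of each tested member with its standard error, large subunit and small subunit apart. Large-subunit members lie mostly above 0, with 26 higher and 8 lower, and small-subunit members are spread on both sides, with 10 higher and 4 lower.

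The large subunit, with 48 of the 77 members tested, held most of the rises and most of the falls. Of its 48 members tested, 26 rose, 8 fell and 14 missed the threshold, with a median log2 fold change of 0.32. Of the 29 members of the small subunit, 10 rose, 4 fell, 15 missed the threshold and the median was 0.16. By share, 54.2% of the large-subunit members rose and 16.7% fell, against 34.5% and 13.8% of the small-subunit members. Over all genes tested 28.7% rose and 29.8% fell. The medians differ by 0.16, which was not tested, and leaving out members that average under 10 CPM, of which each subunit has 5, put the small-subunit median at -0.03. That median was 0.09 without shControl replicate 2, and 0.08 without members that share over 10% of their transcript. Placing MRPS30 and MRPS18A with the large subunit, where both proteins sit despite their symbols, and leaving out MRPS36, left the counts of changed members as they were, with medians of 0.32 and 0.17.

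Summed over all its members, the large subunit stood at 2478, 2454 and 2543 CPM in shRNF20 libraries and at 2249, 2079 and 2345 CPM in shControl libraries. The lowest shRNF20 library was above the highest shControl library. The small subunit stood at 1271, 1266 and 1322 CPM in shRNF20 libraries and at 1317, 1232 and 1398 CPM in shControl libraries, which overlap. The ratio of the large-subunit sum to the small-subunit sum, which does not depend on how libraries are scaled, was 1.94 ± 0.0137 in shRNF20 libraries and 1.69 ± 0.0152 in shControl libraries (SD, n = 3 each), with no overlap. With 3 libraries against 3, an exact permutation test cannot go below p = 0.1, so none is given. Both sums go by symbol and leave out 5 ribosomal proteins under other symbols. The small-subunit proteins DAP3, PTCD3, CHCHD1 and AURKAIP1 averaged 166, 152, 60.6 and 118 CPM in shRNF20 libraries. In shControl libraries they averaged 136, 103, 40.8 and 111 CPM. The large-subunit protein GADD45GIP1 averaged 80.5 CPM in shRNF20 libraries and 119 CPM in shControl libraries. With these added, the ratios of the groups would lie closer together.

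**Figure D2:**
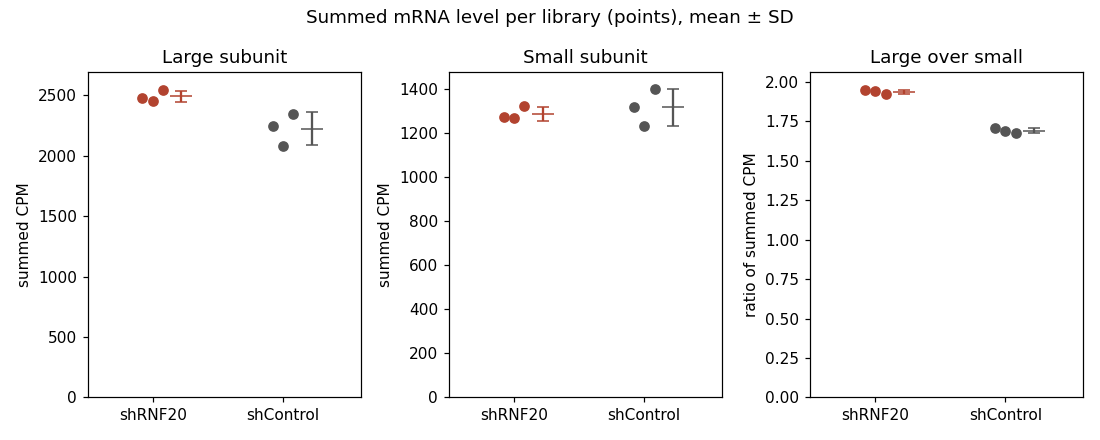
Summed CPM of the large-subunit and small-subunit members and the ratio of the sums in each library, shRNF20 left of shControl. The large-subunit sums do not overlap between groups, the small-subunit sums do, and the ratio is 1.92 to 1.95 in shRNF20 libraries and 1.68 to 1.71 in shControl libraries.

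The rRNAs around which the proteins assemble were counted in the same libraries. MT-RNR2, the rRNA of the large subunit, averaged 8712 ± 881 CPM in shRNF20 libraries and 2240 ± 801 CPM in shControl libraries (SD, n = 3 each), a log2 fold change of 1.96 (SE 0.22, edgeR adjusted p = 1.48e-04). MT-RNR1, the rRNA of the small subunit, averaged 938 ± 57.5 CPM in shRNF20 libraries and 335 ± 85.9 CPM in shControl libraries (SD, n = 3 each), a log2 fold change of 1.48 (SE 0.17, edgeR adjusted p = 1.42e-04). Both counts rose, and by more than the sum of either set of protein mRNAs. The part of rRNA capture or removal during library preparation in these counts was not tested, so they need not reflect the amount of rRNA.

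Promoter stretches are shown for the member with the largest rise and the member with the largest fall among called members of each subunit, a choice made after their values were seen and without regard to motifs. Each runs from 200 bases before to 30 bases after the transcript start in the RefSeq annotation of GRCh38.p14, 5′ to 3′ on the gene's strand. Capitals mark matches, on either strand, to short forms of the motifs of ETS factors (CCGGAA), NRF1 (a longer palindrome given by name only), YY1 (AAGATGGC) and the E-box (CACGTG). No motif contains another. MRPL38 (chr17:75904855-75905084, minus strand) and MRPS5 (chr2:95121779-95122008, minus strand) rose, while MRPL40 (chr22:19432345-19432574, plus strand) and MRPS26 (chr20:3045852-3046081, plus strand) fell.
MRPL38: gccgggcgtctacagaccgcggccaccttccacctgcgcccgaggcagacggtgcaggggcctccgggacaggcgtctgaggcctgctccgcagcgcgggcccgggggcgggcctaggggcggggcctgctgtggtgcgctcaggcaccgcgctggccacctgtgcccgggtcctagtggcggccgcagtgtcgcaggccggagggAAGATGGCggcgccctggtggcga
MRPS5: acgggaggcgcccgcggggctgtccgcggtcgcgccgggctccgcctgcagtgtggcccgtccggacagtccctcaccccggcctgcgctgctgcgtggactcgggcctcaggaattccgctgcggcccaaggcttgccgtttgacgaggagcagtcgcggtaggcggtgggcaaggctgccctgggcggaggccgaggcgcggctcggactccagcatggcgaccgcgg
MRPL40: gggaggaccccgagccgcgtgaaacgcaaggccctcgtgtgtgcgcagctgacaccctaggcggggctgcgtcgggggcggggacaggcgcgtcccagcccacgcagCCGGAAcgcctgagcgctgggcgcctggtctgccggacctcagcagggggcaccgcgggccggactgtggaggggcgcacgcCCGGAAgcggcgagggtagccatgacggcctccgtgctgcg
MRPS26: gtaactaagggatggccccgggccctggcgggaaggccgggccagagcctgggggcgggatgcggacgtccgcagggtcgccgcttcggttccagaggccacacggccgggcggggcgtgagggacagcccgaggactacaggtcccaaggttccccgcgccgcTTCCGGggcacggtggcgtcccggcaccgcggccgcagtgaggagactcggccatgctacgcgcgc

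In these stretches MRPL40 and MRPS26 hold an ETS match, MRPL38 holds a YY1 match, and MRPS5 holds no match to the 4 motifs. Over the 69 members matched to a RefSeq promoter of 300 bases, CCGGAA was found in 39 (56.5%), against 17.6% of all 27305 promoters and 28.9% of those of tested genes. AAGATGGC was found in 20 of the 69, against 3.03% of all and 5.15% of tested. The NRF1 palindrome was found in 8 (11.6%), against 6.29% and 11.5%, and CACGTG in 6 (8.70%), against 7.44% and 9.90%. By direction, CCGGAA was in 18 of 33 members that rose and 6 of 11 that fell, and AAGATGGC in 11 of 33 and 2 of 11. GGGCGG, the GC box of SP factors, was in 42 of the 69 (60.9%), against 44.6% of all promoters and 69.2% of tested ones. It was in 15 of 33 members that rose, 9 of 11 that fell and 17 of 24 that did not pass. Its matches are not marked in the stretches shown. These matches describe letters only, and whether a factor binds was not measured.

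Among the members that fell, MRPL40, a mitochondria-specific protein of the central protuberance, fell most. MRPL40 had 8.85, 8.85 and 8.64 CPM in shRNF20 libraries, against 16.6, 18.9 and 19.9 CPM in shControl libraries, with a log2 fold change of -1.07 (SE 0.12, edgeR adjusted p = 1.23e-04). MRPL17, a homolog of a bacterial protein near the exit of the peptide tunnel, had 50.4, 50.5 and 50.5 CPM in shRNF20 libraries, against 91.7, 81.9 and 81.8 CPM in shControl libraries. Its log2 fold change was -0.75 (SE 0.08, edgeR adjusted p = 7.92e-05). In both genes every shRNF20 library was below every shControl library, which the choice of named members required. MRPL16, also of bacterial descent, had a log2 fold change of -0.58 (SE 0.08, edgeR adjusted p = 3.72e-04), and MRPL18, MRPL4, MRPL37, MRPL10 and MRPL41 fell by 0.33 to 0.38 on the log2 scale. MRPL37 passed narrowly (edgeR adjusted p = 0.044) and its highest shControl library was 170 CPM. Without that library, shControl replicate 3, its log2 fold change was -0.20 (edgeR adjusted p = 0.0906).

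In the small subunit 4 members fell. MRPS26, found only in mitochondria, had 39.1, 40.8 and 39.0 CPM in shRNF20 libraries, against 61.2, 67.1 and 71.1 CPM in shControl libraries, a log2 fold change of -0.74 (SE 0.08, edgeR adjusted p = 1.27e-04). MRPS16, a homolog of a bacterial protein, had a log2 fold change of -0.69 (SE 0.07, edgeR adjusted p = 1.05e-04), and MRPS18B and MRPS10 had -0.53 and -0.34. MRPS10 had the highest mean of both groups in level per kb of transcript in the small subunit, 68.6 CPM per kb in shRNF20 libraries and 86.9 CPM per kb in shControl libraries. In shRNF20 libraries alone MRPS15 was higher, with 85.8 CPM per kb, against 68.3 CPM per kb in shControl libraries.

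Among the well-counted members that rose, MRPL32 had 42.5, 42.3 and 42.6 CPM in shRNF20 libraries, against 28.2, 20.4 and 21.1 CPM in shControl libraries. MRPL32 is processed by the m-AAA protease after import, and its log2 fold change was 0.87 (SE 0.13, edgeR adjusted p = 6.04e-04). MRPL33 and MRPL35, homologs of small bacterial proteins, had log2 fold changes of 0.78 and 0.77. Over all its exons, MRPL33 shares 21.1% of bases with other genes on the same strand. MRPL27 had 64.0, 65.8 and 73.0 CPM in shRNF20 libraries, against 43.3, 36.3 and 39.9 CPM in shControl libraries, a log2 fold change of 0.76 (SE 0.09, edgeR adjusted p = 2.18e-04). MRPL20 had 0.66 (SE 0.11, edgeR adjusted p = 0.00124), and 19.3% of its transcript is shared with other genes. In each of these 5 the groups did not overlap, which the choice of named members required. In the small subunit MRPS23, MRPS35 and MRPS11 rose with log2 fold changes of 0.64, 0.48 and 0.56.

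**Figure D3:**
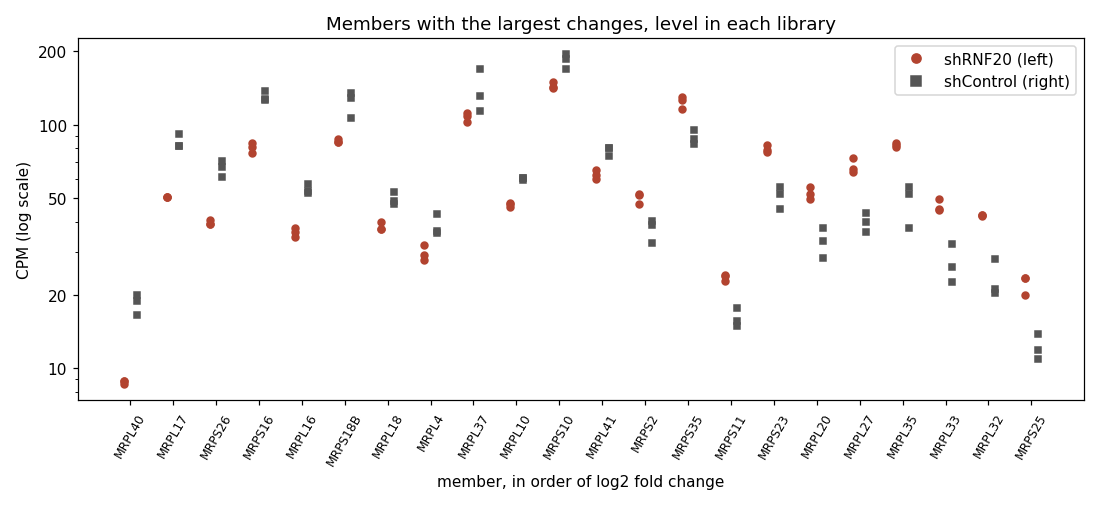
CPM (log axis) in each library of the members with the largest changes, in order of log2 fold change, with shRNF20 points left of shControl points. Members averaging under 10 CPM are not drawn. Members were drawn only if their groups do not overlap. By that choice MRPL40 to MRPL41 are lower in every shRNF20 library, and MRPS2 to MRPS25 are higher in every one.

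Of the 6 called members with a change of at least 2-fold, 5 averaged under 10 CPM. MRPL38, of the central protuberance, had 7.58, 9.94 and 6.96 CPM in shRNF20 libraries, against 0.813, 0.947 and 0.554 CPM in shControl libraries, a log2 fold change of 3.39 (SE 0.26, edgeR adjusted p = 2.49e-05). MRPL46, also of the central protuberance, had 2.81, 3.63 and 3.51 CPM in shRNF20 libraries, against 0.677, 0.316 and 0.937 CPM in shControl libraries, a log2 fold change of 2.36 (SE 0.36, edgeR adjusted p = 6.67e-04). Much of each transcript is shared with other genes, 67.8% for MRPL38 and 71.0% for MRPL46, and reads that fit both genes were not counted. MRPS5, at the entry of the message channel, had 13.4, 11.1 and 11.6 CPM in shRNF20 libraries, against 4.20, 2.76 and 3.88 CPM in shControl libraries. Its log2 fold change was 1.73 (SE 0.19, edgeR adjusted p = 1.14e-04). None of its principal transcript is shared, but over all its exons 8.19% of bases are shared with other genes on the same strand. MRPS17 had 1.19 with 31.6% of its transcript shared.

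Counting by strand changed some members. For 12 members the sum of the counts by strand was over 1.5 times the count without strand. MRPS18C had a log2 fold change of 1.42 (edgeR adjusted p = 0.00141), but 78.9% of its transcript is shared, and with strand sums it had 0.11 (edgeR adjusted p = 0.298). MRPS25 had 0.87 without strand and 0.38 with strand sums (edgeR adjusted p = 0.00172). MRPL9 lost its call, with 0.32 and then 0.18 (edgeR adjusted p = 0.0622), and MRPS22 gained one, with -0.12 and then -0.26 (edgeR adjusted p = 0.0111). MRPL2, MRPL4, MRPS2, MRPS9, MRPS11, MRPS18A, MRPS34 and MRPL38 kept their direction. The libraries carry no strand, since 50.1% to 50.2% of the reads counted by strand fell in 1 of the 2 strand columns, so strand sums also hold antisense reads of the partner.

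**Figure D4:**
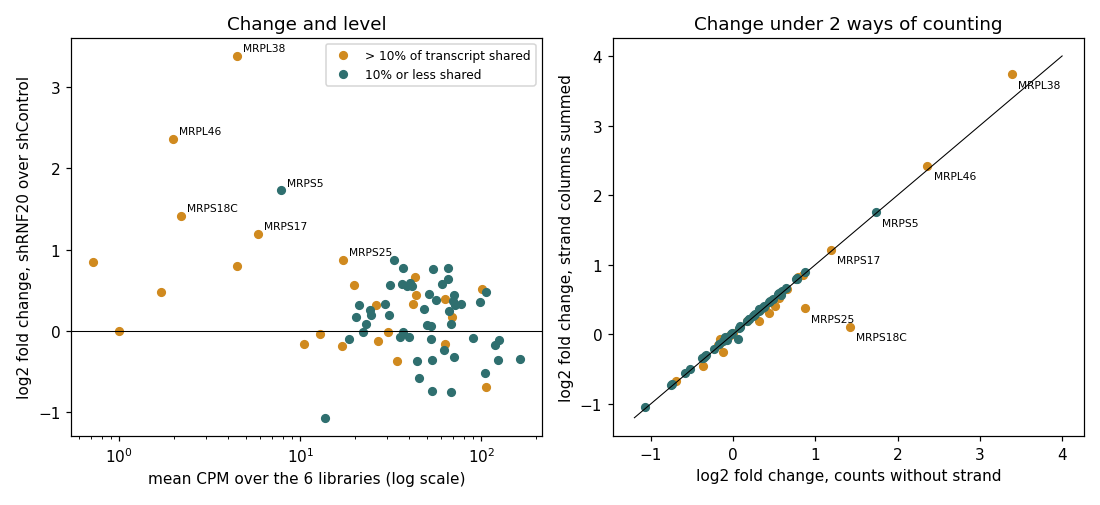
Left, log2 fold change of each tested member against its mean CPM (log axis). Right, log2 fold change from strand sums against that from counts without strand. The largest rises sit at low CPM, and MRPS18C moves to 0.11 with strand sums.

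By position in the large subunit, the central protuberance held both directions, with MRPL38, MRPL46 and MRPL58 higher, MRPL40 and MRPL18 lower, and MRPL48 at 0.20 without passing. MRPL58 (log2 fold change 0.55, edgeR adjusted p = 0.00102) is also a peptidyl-tRNA hydrolase. At the tunnel exit MRPL22, MRPL45 and MRPL47 rose with log2 fold changes of 0.59, 0.44 and 0.58, MRPL17 fell, and MRPL23 and MRPL24 had 0.07 and 0.08 without passing. MRPL45 is known to tie the ribosome to the inner membrane. In the stalk, which recruits translation factors, MRPL11, MRPL12 and MRPL54 rose with 0.38, 0.79 and 0.33, and MRPL10 fell with -0.36. MRPL12 shares 68.2% of its transcript with other genes.

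By descent, 16 of 30 large-subunit homologs of bacterial proteins rose and 5 fell (median 0.32), against 10 and 3 of 18 mitochondria-specific ones (median 0.34). In the small subunit by symbol 7 of 18 bacterial homologs rose and 3 fell (median 0.20), against 3 and 1 of 11 mitochondria-specific ones (median -0.08). By symbol, these homologs include MRPS18A, and the mitochondria-specific ones include MRPS30 and MRPS36. The members nearest 0 were MRPL44, MRPL57, MRPS28 and MRPS33, with log2 fold changes of -0.02, -0.02, 0.00 and -0.01. MRPS30 had -0.23 and MRPS18A had -0.05, and MRPS36, now known as a subunit of the alpha-ketoglutarate dehydrogenase complex, had 0.26, and none of these passed. MRPL14 had the highest mean of both groups in level per kb of transcript in the large subunit, 91.2 CPM per kb in shRNF20 libraries and 96.8 CPM per kb in shControl libraries, and did not pass (log2 fold change -0.09). In shRNF20 libraries alone MRPL51 and MRPL27 were higher, with 95.9 and 94.4 CPM per kb, against 67.2 and 55.6 CPM per kb in shControl libraries. Across the 77 members, the log2 fold change had a Spearman correlation of -0.314 with mean CPM, 0.244 with the share of the transcript shared and -0.0399 with transcript length, as descriptions over genes that share libraries.

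Many members start head to head with another coding gene, and 18 of them have a partner on the other strand whose start lies within 1000 bases upstream or 100 bases downstream. In 17 pairs both genes were tested, and both rose in 7, both fell in 1, they moved in opposite directions in 3, and in 6 at least 1 gene did not pass. Among members 46.8% rose and 15.6% fell, and over all genes tested 28.7% rose and 29.8% fell. Head-to-head pairs outside the family were not counted, so whether partners move together more than other genes was not tested. MRPL46 and MRPS11 form a pair of members, and both rose. MRPL27 rose while its partner EME1, a subunit of a DNA endonuclease, had a log2 fold change of -0.73, and MRPL52 rose while SLC7A7, an amino acid transporter, had -2.16. MRPL10 fell while LRRC46 had 1.09 (SE 0.41, edgeR adjusted p = 0.0454), at only 0.980 CPM in shRNF20 libraries and 0.449 CPM in shControl libraries. Among the pairs in which both rose, PSMA2, the partner of MRPL32, was also low, at 1.80 CPM in shRNF20 libraries and 0.196 CPM in shControl libraries.

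Proteins of the mitochondrial ribosome with other symbols moved both ways. GADD45GIP1, a large-subunit protein at the tunnel exit, averaged 80.5 ± 2.64 CPM in shRNF20 libraries and 119 ± 5.55 CPM in shControl libraries (SD, n = 3 each), a log2 fold change of -0.56 (edgeR adjusted p = 2.26e-04). The small-subunit proteins PTCD3, CHCHD1 and DAP3 rose with 0.56, 0.57 and 0.29, and AURKAIP1 had 0.09 without passing. Among 26 tested assembly factors 10 rose and 6 fell, with a median of 0.16. The smallest p-values belonged to MTERF4 (log2 fold change 1.47), MTG2 (0.71) and DDX28 (1.04). The 6 that fell were MRM1 (-1.22), TFB1M (-1.09), NOA1 (-0.80), RPUSD3 (-0.52), YBEY (-0.45) and METTL15 (-0.44). Of 15 genes of mitochondrial translation and expression, a list that also holds the mRNA-stability factor LRPPRC, the membrane insertase OXA1L and the transcription elongation factor TEFM, 5 rose and 3 fell, with a median of 0.24, MRRF, which recycles ribosomes, at 0.49, the initiation factor MTIF3 at -0.55 and the release factor MTRF1 at 0.55.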

How the data were processed

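RNA-seq reads of 6 libraries were mapped with STAR 2.7.11a to hg38 after FastQC 0.12.1, per the submitters' processing notes, and the authors deposited the counts per gene that STAR wrote. The column without strand was used, and the annotation release behind it is not given in the sources used here. Lines that name no gene held 20.9% to 24.1% of counts and were left out. Gene types and transcripts came from GENCODE 29. Shares of a transcript refer to the longest principal or, failing that, longest coding transcript of each member. In edgeR 4.0.16 (R 4.3.3), genes passed filterByExpr at a minimum count of 10, libraries were scaled by TMM, and groups were compared by the robust quasi-likelihood F test, with Benjamini-Hochberg adjustment over all 15797 genes tested and a threshold of 0.05. SE is the absolute log2 fold change over the root of F. The fit was tested on simulated data. Named members were the 8 largest rises and falls per subunit among called members whose groups do not overlap, those nearest 0, the highest and lowest per kb, members that differ with strand, and the structural lists. DESeq2 1.42.0, limma 3.58.1, other scalings, filters and strand sums were alternatives. The members and lists were chosen with earlier results of these data known, and the promoter motifs and the pairing of head-to-head genes after the data had been seen. The level of 1 further marker gene is not reported here.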

Additional observations from a re-analysis of the deposited data

Results flagged for a closer look

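MRPL20-AS1, an antisense transcript outside the family, had 16.9, 21.6 and 15.2 CPM in shRNF20 libraries, against 12.4, 11.5 and 13.4 CPM in shControl libraries, a log2 fold change of 0.52 (SE 0.15, edgeR adjusted p = 0.0154). It was singled out because it carries signal in data that the comparison of members does not use. Without strand, its reads and those of MRPL20 cannot be told apart where they overlap.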

How the results depend on the processing

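As reported, edgeR called 48 members, 36 higher and 12 lower, with medians that differ by 0.16 between the subunits. Testing against a 1.2-fold change, a stricter test by construction, called 31, with 6 lower. With the 3 shRNF20 libraries summed to 1 sample, which removes replicates, 14 were called, 10 higher and 4 lower. Sums of the strand columns put the difference of medians at 0.24. With 2 alternatives chosen after seeing the data, leaving out members that share over 10% of their transcript gave 23 higher, by construction with fewer members, and leaving out members under 10 CPM gave a difference of 0.32 and a small-subunit median of -0.029. Leaving out 1 library at a time gave 39 to 50 members called, 28 to 36 higher, 10 to 15 lower and a difference of 0.158 to 0.214, and 38 of the 48 were called each time. The small-subunit median was 0.089 to 0.166 over these. The 10 others were MRPL3, MRPL4, MRPL9, MRPL11, MRPL13, MRPL30, MRPL37, MRPL54, MRPS14 and MRPS15. With the replicate number as a replicate block, 48 members were called, the same 48, and the difference was 0.165. Deviations of same-numbered libraries correlated at -0.019 to 0.048. The median absolute log2 difference was 0.081 to 0.095 between shRNF20 libraries and 0.19 to 0.25 between shControl libraries. With so little spread among shRNF20 libraries, these correlations cannot decide whether the numbers pair the samples. No called member changed sign under the alternatives that refit all genes. Summed over the small-subunit members by symbol, the shRNF20 level was 0.978 times that of shControl with TMM and 1.002 times with upper quartile scaling.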

Other observations

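Of 166 symbols that begin like a member's, 88 are not protein-coding, and 4 of these had enough counts to be tested. Beside MRPL20-AS1, the log2 fold changes were 0.52 for MRPL20-DT (edgeR adjusted p = 0.134), -0.67 for MRPS35-DT (edgeR adjusted p = 0.239) and 0.31 for the pseudogene MRPL45P2 (edgeR adjusted p = 0.465), and none of these 3 passed.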
